A study of Mus musculus with 14 samples.

Results

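The tight and gap junction genes described here are 9 mouse genes of cell-to-cell contact, of the 15964 genes that the arrays name by a probe set with 1 gene symbol. They were taken as every probe set of the 3 array value tables whose only annotated symbol was Gja1, Gja4, Gja5, Cldn5, Tjp1, Ocln, Jam2, Jam3 or F11r, which gave 17 probe sets, 10 on array set A, 3 on B and 4 on C. The study measured RNA of isolated primary mouse splenocytes in a fraction enriched for follicular dendritic cells, or FDC, and in a fraction depleted of them, on 14 arrays. Array sets A and C each held 2 depleted and 3 enriched samples, and set B held 2 and 2. For neither group do the sources used here give strain, age, genotype, treatment or the means of enrichment. The labels do not state whether the samples of a group are from different mice, and the p-values therefore reflect only how far these samples vary, a variation that may be technical. FDC are stromal cells of B cell follicles that hold antigen on their surface, so the comparison asks which RNAs go with the fraction that holds more of them.

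In the enriched samples the connexin gene Gja1 and the claudin gene Cldn5 were higher by 26.9- and 20.8-fold in mean intensity, and Jam2 by 16.1-fold. Gja4, Jam3 and Tjp1 rose by smaller amounts, 4.4-, 4.06- and 3.79-fold, on set A, though a second Jam3 probe set on set C did not pass (1.04-fold). F11r rose by 1.35-fold at the set C probe set that stands for the gene and by 4.54-fold on set A, and a further one on set C did not pass (1.09-fold). The connexin gene Gja5 and the occludin gene Ocln did not pass the test at the probe set that stands for each. The probe sets that rose for Gja1, Cldn5, Jam2, Gja4, Jam3 and Tjp1 were bright enough to test on the enriched arrays alone. These therefore had to differ, whereas the probe sets that stand for Gja5 and Ocln, and all of F11r, were bright enough in both groups. The same enriched samples held more summed signal of the markers of endothelium and also of FDC, mural cells, fibroblasts and macrophages, with values given after the members, and the share of these cells in each change was not tested.

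Gap junctions are channels that join the cytoplasm of neighbouring cells. Each cell contributes hexamers of connexins, and the connexins here, Gja1 (Cx43), Gja4 (Cx37) and Gja5 (Cx40), are those known from blood vessel walls, Cx43 also from muscle and stromal cells and from contacts between FDC. Tight junctions seal the gap between cells. Their strands are made of claudins such as Cldn5, the main claudin of endothelium, with occludin (Ocln) as a further membrane protein, while the junctional adhesion molecules F11r (JAM-A), Jam2 (JAM-B) and Jam3 (JAM-C) hold the membranes together and Tjp1 (ZO1) anchors the strands, and connexins too, to actin.

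For 7 of the 9 genes, RefSeq (GRCm38.p6) has a window from 250 bases before to 50 after the gene's start, 8 windows in all as Ocln has 2. The windows of the 3 connexins and of Cldn5 are shown because these genes give the widest contrast within the group, in that Gja1, Gja4 and Cldn5 rose and Gja5 did not pass. Capitals mark every match on either strand to the AP-1 site TGANTCA, the SOX core ACAAT and the GC box GGGCGG. The Gja1 window is chr10:56377050-56377349, plus strand, the Gja4 window chr4:127313990-127314289, minus strand, the Gja5 window chr3:97032152-97032451, plus strand, and the Cldn5 window chr16:18776597-18776896, plus strand.
Gja1: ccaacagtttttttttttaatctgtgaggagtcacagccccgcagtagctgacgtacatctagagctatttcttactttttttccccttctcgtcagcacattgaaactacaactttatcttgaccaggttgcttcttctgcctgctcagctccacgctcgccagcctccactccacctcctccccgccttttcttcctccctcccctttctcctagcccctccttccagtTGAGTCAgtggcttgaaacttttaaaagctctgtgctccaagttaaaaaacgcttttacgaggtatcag
Gja4: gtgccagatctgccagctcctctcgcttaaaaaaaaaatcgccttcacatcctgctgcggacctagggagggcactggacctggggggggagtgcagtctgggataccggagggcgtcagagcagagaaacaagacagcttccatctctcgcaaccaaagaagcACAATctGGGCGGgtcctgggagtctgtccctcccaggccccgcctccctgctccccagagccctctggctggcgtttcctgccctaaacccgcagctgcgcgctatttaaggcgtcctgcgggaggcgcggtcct
Gja5: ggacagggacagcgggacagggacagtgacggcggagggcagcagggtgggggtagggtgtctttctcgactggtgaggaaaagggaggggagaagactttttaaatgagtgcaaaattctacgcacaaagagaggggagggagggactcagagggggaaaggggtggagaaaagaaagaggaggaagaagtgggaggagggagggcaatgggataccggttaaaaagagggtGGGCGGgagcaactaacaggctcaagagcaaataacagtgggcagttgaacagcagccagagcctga
Cldn5: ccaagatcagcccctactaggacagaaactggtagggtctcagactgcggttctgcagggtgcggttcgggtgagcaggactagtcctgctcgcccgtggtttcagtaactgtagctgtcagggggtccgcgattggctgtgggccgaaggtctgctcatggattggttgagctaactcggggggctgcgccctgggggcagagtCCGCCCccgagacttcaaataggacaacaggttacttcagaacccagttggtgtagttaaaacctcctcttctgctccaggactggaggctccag
The Gja1 window holds 1 AP-1 match, 19 bases before the start, and no GC box, and F11r is the other member with an AP-1 match. An AP-1 match is present in 7.81% of the 32851 windows of 300 bases in the table. A GC box match, present in 35.7% of all windows, was found in every member window except that of Gja1. The SOX core, present in 31% of all windows, was found among the members in Gja4 alone. The ETS core GGAA, which endothelial ETS factors share with all other ETS factors, is present in 96% of all windows and was found in all member windows except that of Cldn5. No base of a member window lay in matches to more than 1 of these motifs. The GC content ran from 47.7% in Gja1 to 68% in the second Ocln window, against a median of 52.7% over all windows. These matches describe letters in a window, and the motifs were chosen with the expression values known.

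The deposited values are intensities on a linear scale, 1 per probe set and array. Each array set was fitted alone with limma on log2(intensity + pseudocount), where the pseudocount was the 20th percentile of the set, so fold changes of dim probe sets are understated. Probe sets entered the test when at least 2 arrays of the set had them over the 40th percentile of that array, and passed at a Benjamini-Hochberg adjusted p under 0.05. Of all tested probe sets, 23.1% were called higher in the enriched samples on set A, 19.4% on B and 9.50% on C, and 17.9%, 17.0% and 8.73% were called lower, which makes 41.0%, 36.5% and 18.2% called either way. The split between higher and lower on set A, 56.3% higher of those called, became 42.7% with arrays scaled to the same median and 41.5% after quantile normalization. Of the 17 probe sets of the junction genes, 14 were tested and 10 of them were called higher, none lower, and 4 did not pass. No depleted array lay above the filter for 8 of the 14, so these entered the test only through the enriched arrays and had to differ. Both depleted arrays lay above it for the other 6, of which 2 were called higher. In 11 of the 14 all enriched arrays lay above all depleted ones, which held for 34.7% of tested probe sets on set A, 34.4% on B and 27.1% on C, while all enriched arrays lay lower for 28.6%, 33.3% and 20.5%.

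Of the connexins, Gja1 and Gja4 rose and Gja5 did not pass. Gja1 encodes Cx43, the most widely expressed connexin. Its brighter probe set read 99.49 and 133 on the depleted arrays of set A and 2938, 2960 and 3472 on the enriched ones. Its dimmer probe set, annotated to the same sequence record, read 3.249 and 7.334 against 141.6, 230.3 and 192.6. In both, every enriched array lay far above every depleted one, and the means differed by 26.9- and 35.6-fold on the linear scale. On the scale with the pseudocount the log2 fold changes were 3.97 (SE 0.107, 95% interval 3.73 to 4.22, adjusted p = 1.01e-07) and 1.55 (SE 0.128, 1.25 to 1.84, adjusted p = 2.87e-05), the second compressed because its values lie near or below the pseudocount of 88.49. The name of the brighter probe set carries the maker's f suffix, for probes that can match related sequences, and that of the dimmer one the r suffix, for probes that did not meet all selection rules.

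Gja4, the Cx37 gene of endothelium and oocytes, read 139.7 and 153.4 on the depleted arrays and 627, 685.1 and 622.7 on the enriched arrays. The groups did not overlap, and the enriched arrays were within 1.1-fold of each other. Its log2 fold change was 1.64 (SE 0.0733, 1.47 to 1.81, limma adjusted p = 9.69e-07), a 3.12-fold rise on the scale with the pseudocount. The linear means differed by 4.4-fold.

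Gja5, the Cx40 gene known from arterial endothelium and the atrial heart, read 300.8 and 312.2 on the depleted and 291, 267.4 and 306.9 on the enriched arrays. These ranges overlap. All 5 arrays lay above the filter, but the probe set stood at percentile 26.6 of the tested probe sets by mean level, and the tables used here give no background or detection call for it. Its log2 fold change was -0.07 (SE 0.0726, adjusted p = 0.505, limma), and the 95% interval of -0.24 to 0.1 leaves out a rise of the size seen for Gja4 or Gja1. The direction of the Gja5 value was below 0 under all 15 alternatives that tested it, other scalings included, from -0.17 to -0.03, and it passed in none. The 11 arterial markers that rose had log2 fold changes from 0.3 to 3.96, among them the Notch ligand gene Dll4 with 0.42, the netrin receptor gene Unc5b with 0.64 and the chemokine gene Cxcl12, which stromal cells express too, with 2.16. The highest, Sox17 (3.96) and Efnb2 (2.93), lay below the filter on both depleted arrays. They entered the test only through the enriched arrays and had to differ. In each sample the log2 value of Gja4 minus that of Gja5 was -0.77 and -0.73 in the depleted and 0.92, 1.12 and 0.85 in the enriched samples, a change of 1.71. The exact permutation test over the 5 samples gave p = 0.1, the smallest this design allows, and adjusted p = 0.112 over 9 such comparisons. Gja4 entered the limma test only through the enriched arrays, so its separation was set beforehand and this p-value cannot test the contrast.

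**Figure D1:**
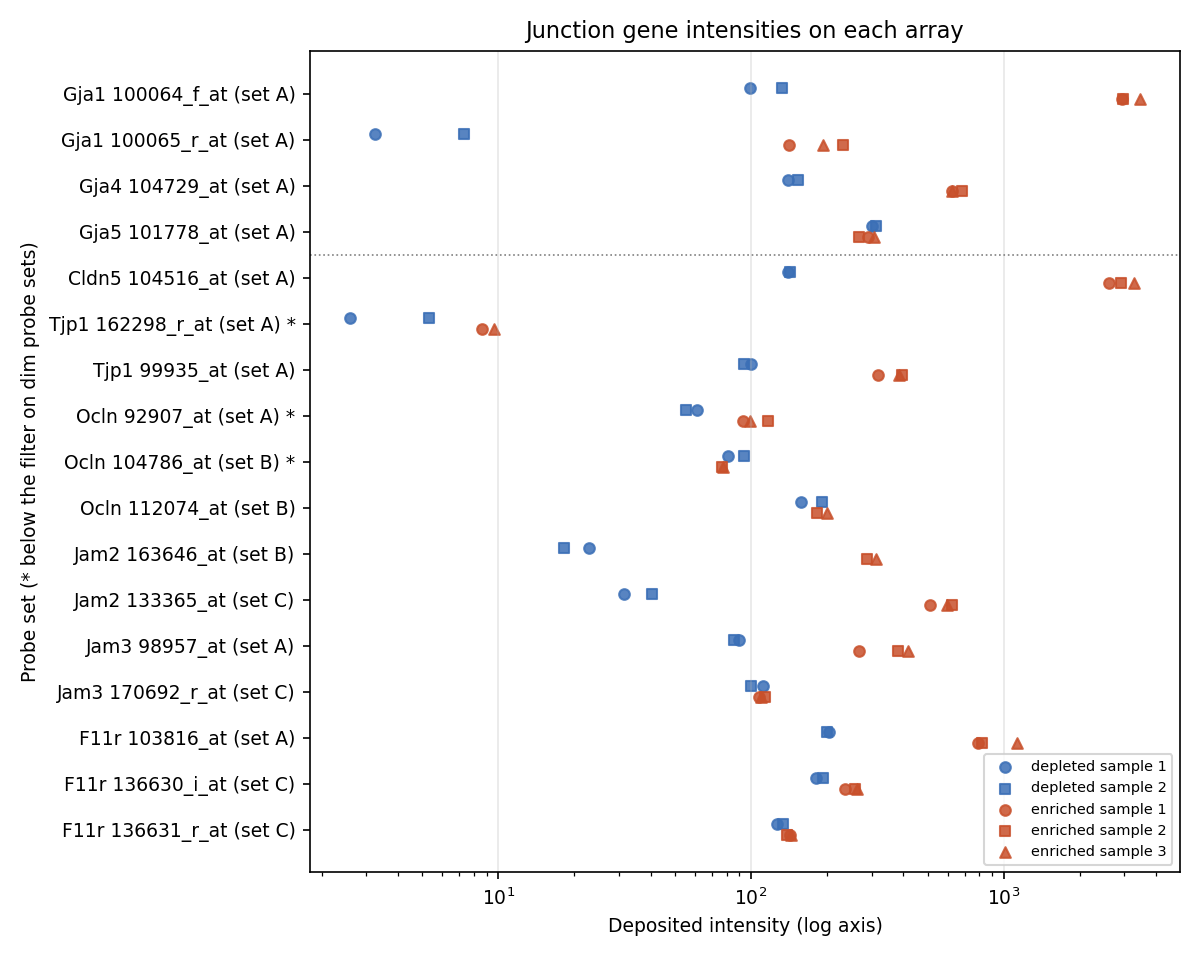
Deposited intensity on a log axis (horizontal) of the 17 probe sets of the junction genes (vertical), 1 point per array, blue for depleted and red for enriched samples, with the marker shape giving the sample number. The connexins stand above the dotted line and the tight junction genes below it, and an asterisk marks the 3 probe sets below the filter. Gja1, Cldn5 and Jam2 show the widest gaps between the groups, and the Gja5 points fall together.

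Cldn5, the claudin that lines endothelial tight junctions, had the largest log2 fold change of the tested tight junction members. It read 139.5 and 142.1 on the depleted arrays and 2619, 2919 and 3267 on the enriched arrays. The log2 fold change was 3.72 (SE 0.0995, 3.49 to 3.95, limma adjusted p = 1.01e-07), and the linear means differed by 20.8-fold. As at the brighter Gja1 probe set, its enriched values were lowest in sample 1 and highest in sample 3, while the dimmer Gja1 probe set was highest in sample 2.

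Tjp1, the scaffold ZO1, rose less. At its brighter probe set it read 100.3 and 93.38 against 319.5, 394.9 and 386.2, with a log2 fold change of 1.29 (SE 0.0888, adjusted p = 9.94e-06, limma). The groups did not overlap. A second Tjp1 probe set, with the r suffix, read 2.578 and 5.313 against 8.614 and 9.57, with no value on enriched sample 2, and lay below the filter. In a fit without the filter, on the remaining 4 arrays, its log2 fold change was 0.08 with adjusted p = 0.154.

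Occludin was the tight junction gene whose brightest probe set did not pass. That probe set, on set B, read 158.3 and 190.5 on the depleted and 182.5 and 199.4 on the enriched arrays, which overlap, with a log2 fold change of 0.09 (SE 0.0709, 95% interval -0.07 to 0.25, limma adjusted p = 0.357). The other Ocln probe sets were below the filter and did not move alike. On set A the values were 61.01 and 55.08 against 92.85, 117 and 99.1, all enriched arrays being higher, and in a fit without the filter the log2 fold change was 0.38 with adjusted p = 0.00221. On set B the second probe set read 80.99 and 93.7 against 76.46 and 77.8, so there the enriched arrays were lower, with a log2 fold change of -0.09 and adjusted p = 0.255.

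All junctional adhesion molecules rose at 1 probe set or more, and their sizes differed between probe sets. Jam2, known from the endothelium of venules and lymphatics, read 31.35 and 40.44 on the depleted arrays of set C against 511.8, 625.2 and 598.9, a log2 fold change of 2.82 (SE 0.0843, adjusted p = 2.28e-07, limma). On set B it read 22.92 and 18.16 against 286.9 and 313.3, a log2 fold change of 1.91 (SE 0.0576, adjusted p = 8.32e-09). The linear means differed by 16.1- and 14.6-fold, so the array sets lie closer on the linear scale than on the scale with the pseudocount, which is 53.13 on C and 81.23 on B. No overlap was seen on either set.

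F11r encodes JAM-A, found on endothelium, epithelium, platelets and leukocytes. On set A it read 204.1 and 199.9 against 793.2, 821.9 and 1134, a log2 fold change of 1.77 (SE 0.136, limma adjusted p = 1.89e-05). Both depleted arrays were above the filter here, so this rise did not depend on entering the test through the enriched arrays. On set C, F11r had a pair of probe sets from 1 expressed sequence tag. The first read 180.2 and 192.7 against 234.6, 258 and 263.4, a log2 fold change of 0.35 (SE 0.0588, adjusted p = 0.00379), and the second read 126.5 and 133.5 against 142.8, 138.5 and 143.3, a log2 fold change of 0.09 (SE 0.0462, adjusted p = 0.24). In all of them every enriched array lay above both depleted ones, but by margins from 1.09-fold to 4.54-fold between the means. The names on set C carry the i and r suffixes, which the maker gave to probe sets that did not meet all selection rules.

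Jam3, the JAM-C gene, read 89.5 and 85.43 against 266.6, 380.3 and 418.6 on set A, a log2 fold change of 1.32 (SE 0.139, limma adjusted p = 0.000122). Enriched sample 1 lay below the other enriched samples and still well above the depleted ones. On set C its probe set, with the r suffix, read 111.8 and 100.1 against 107.2, 113.3 and 109.4, which overlap, with a log2 fold change of 0.04 (SE 0.0511, 95% interval -0.08 to 0.15, adjusted p = 0.686). Which of the probe sets measures Jam3 RNA better was not tested.

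**Figure D2:**
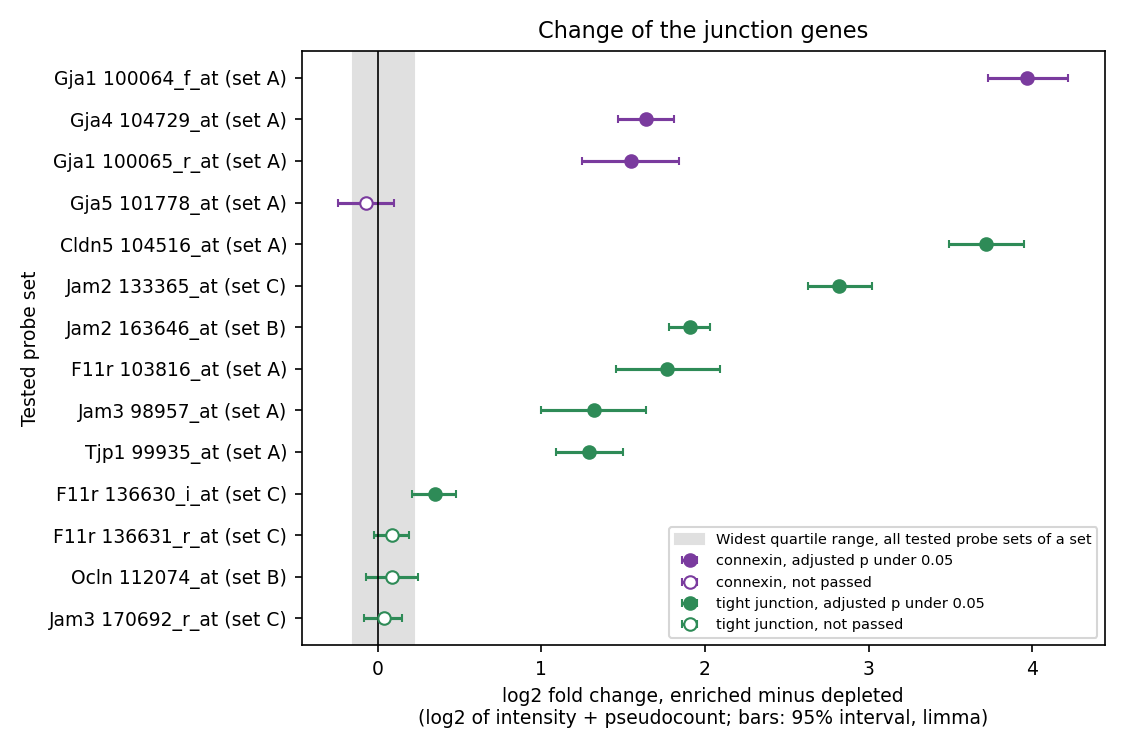
Log2 fold change with its 95% limma interval (horizontal) of the 14 tested probe sets of the junction genes (vertical), purple for connexins and green for tight junction genes, filled where the adjusted p was under 0.05. The grey band spans the lowest lower and the highest upper quartile of all tested probe sets over the 3 array sets. Connexins run from -0.07 in Gja5 to 3.97 in Gja1, and tight junction genes from 0.04 in Jam3 on set C to 3.72 in Cldn5.

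Each gene was taken at its brightest tested probe set, from the array set where that ranks highest in level. For F11r this was the one on set C, at percentile 54.9 against 54 on set A, though it was dimmer in intensity. Of the connexins 2 of 3 rose and 1 did not pass, with a median log2 fold change of 1.64 and a range from -0.07 to 3.97. Of the 6 tight junction genes 5 rose and 1 did not pass, with a median of 1.31 and a range from 0.09 to 3.72. Over all 12267 genes with a tested probe set 19.2% rose, 14.4% fell and 33.7% were called either way, with a median log2 fold change of 0.019. As most of the rising members entered the test only through the enriched arrays, these counts and medians describe the members and are not a test of them. The tight junction median was 1.55 with F11r taken from its set A probe set, a choice made after seeing the data, so the order of the medians rests on few genes and was not tested.

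Markers of several cell types moved with the same comparison, beside 19.2% of all genes rising and 14.4% falling. Of 17 tested endothelium markers 16 rose and Ets1, which lymphocytes express too, fell by 0.91 on the log2 scale, and the summed intensity of the list on set A went from 4236 and 4418 on the depleted arrays to between 22550 and 24170 on the enriched ones. Of 11 arterial markers 11 rose (3352 to 3487 against 10200 to 11790). All 11 tested FDC markers rose (5990 to 6903 against 23500 to 28000), as did all 11 of mural and smooth muscle cells (1959 to 1964 against 9602 to 11360), 7 of 8 of reticular fibroblasts (3138 to 3403 against 8610 to 9666), 10 of 11 of macrophages (7827 to 9151 against 18980 to 21970) and 5 of 7 of platelets (1646 to 1712 against 1969 to 2242). The platelet sum leaves out Ppbp and Itga2b, measured on sets B and C, which rose by 3.22 and 1.46 on the log2 scale. It also leaves out Treml1 on set B, which had -0.14 and did not pass (limma adjusted p = 0.198). The B cell markers fell in 5 of 6 genes (20630 to 20910 against 6499 to 8464) and those of T cells in 6 of 6 (4842 to 5376 against 1552 to 1656). No epithelial or mesothelial marker of 4 tested passed (1761 to 1779 against 1807 to 2222). No summed marker was at 0. Some markers, among them Tie1, Acta2, Cxcl13 and Sox17, lay below the filter on both depleted arrays and entered the test only through the enriched arrays. Cd3d and Cd3g lay below it on every enriched array and entered only through the depleted ones. Such genes had to differ, so the counts describe the lists and are not a test of them. How much these cell types contribute to the changes of the junction genes was not tested, and in such mixed samples more cells of a type and more RNA per cell cannot be told apart. Ptprc, the pan-leukocyte gene CD45, fell 3.2-fold on the scale with the pseudocount (limma, adjusted p = 5.85e-05). Actb, a cytoskeletal actin gene, had a log2 fold change of -0.11 (limma adjusted p = 0.361).

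**Figure D3:**
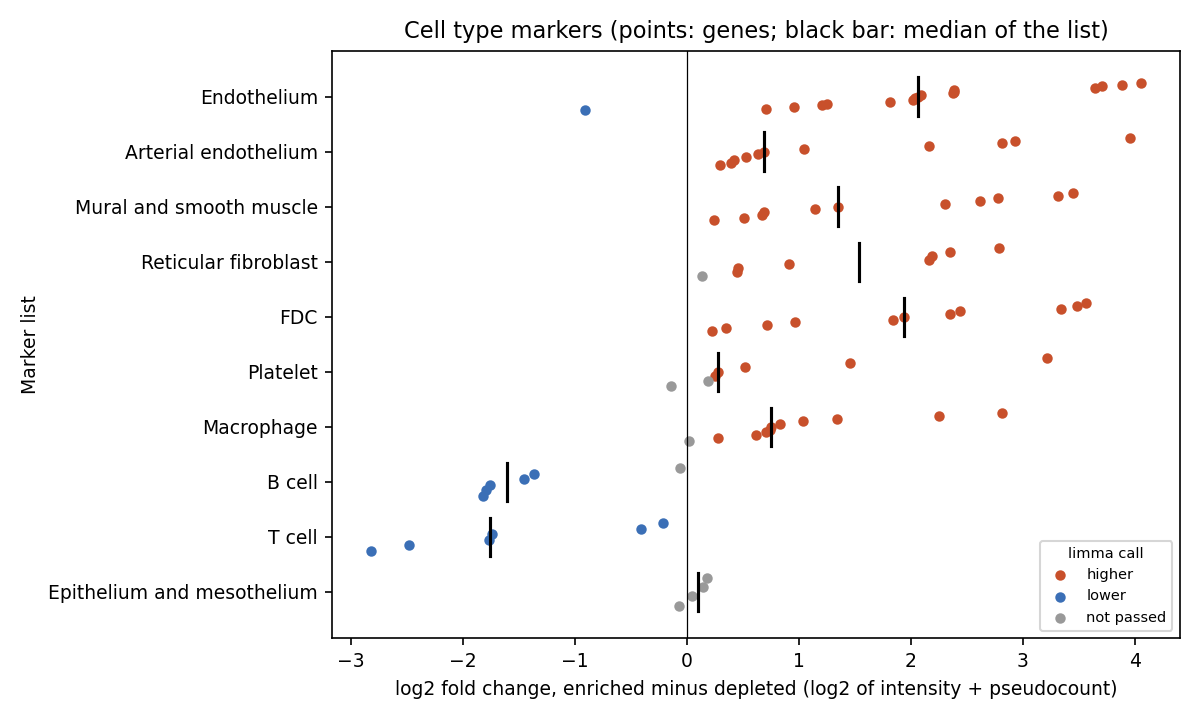
Log2 fold change (enriched minus depleted) of the tested marker genes of 10 cell types on the horizontal axis, by marker list on the vertical axis, 1 point per gene at its brightest tested probe set. Colour gives the limma call and the black bar the median of the list. The endothelium, arterial, mural, fibroblast, FDC, macrophage and platelet lists lie mostly to the right. B and T cell lists lie to the left, and the 4 epithelial and mesothelial genes near 0.

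The enriched samples differed among themselves in the same way for most members. Of the 9 probe sets called higher on sets A and C, which count Gja1 and F11r more than once, enriched sample 1 was the lowest enriched array for 8. Enriched sample 3 was the lowest for the other, Gja4. The highest enriched array was from 1.1-fold (Gja4) to 1.63-fold (the dim Gja1 probe set) above the lowest, with 1.57-fold for Jam3 and 1.43-fold for F11r on set A. These gaps are small beside the difference between groups for Gja1, Cldn5 and Jam2. Outside the members, Cdh5 and Tie1 were lowest in enriched sample 1 too, while Flt4 and Cd34 were not. The share over all probe sets was not taken, so this order may not be particular to the junction genes.

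The profile of each member was set against those of the tested probe sets of its array set that have 1 gene symbol. Other members and clone names were left out, so no junction member could appear among the nearest. The measure was the root mean square difference of log2 values centred on each probe set's own mean. Every such likeness rests on the 4 or 5 arrays of a set, which mostly carry the difference between groups. Nearest to Gja1 were Col18a1, a basement membrane collagen gene (0.103), Emp1, an epithelial membrane protein gene (0.108), and Tie1, an endothelial receptor kinase gene (0.12). Cldn5 lay nearest to the proteoglycan gene Bgn (0.0366), Emp1 (0.051) and Eng, the endothelial TGF-beta co-receptor gene (0.0659). Emp1, with a log2 fold change of 3.81, thus stood among the nearest of both. Gja4 lay nearest to Itgb1, the integrin beta 1 gene (0.0365), Itm2c (0.0396) and Rnf11 (0.0419). Nearest to Gja5 were Dnajc5 (0.00885), Nkiras2 (0.00983) and Wnt4 (0.0106), with log2 fold changes of -0.08, -0.08 and -0.06, none of which passed. For Jam2 on set C they were Arhgap23 (0.0499), Tfpi, the tissue factor pathway inhibitor gene (0.107), and Colec12 (0.121). Tjp1 lay nearest to Rab11fip5 (0.0218), the cell cycle inhibitor gene Cdkn1c (0.0269) and Ptprm, a receptor phosphatase gene of cell contacts (0.0323). Jam3 had Gab1 (0.0333), Lgalsl (0.0573) and Ifrd1 (0.0643), F11r on set C had Gtf2ird1 (0.0208), Ubtd1 (0.0217) and Frzb (0.0273), and Ocln on set B had Ticam1 (0.0125), Thap11 (0.0131) and Larp4 (0.0143).

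Of 10 other gap junction genes on the arrays 5 were tested. Among these 1 was called higher, 0 lower, and 4 missed the threshold, with a median log2 fold change of 0.06. Over all genes 19.2% were called higher, so this count is near the background. Gjc1, the Cx45 gene of smooth muscle and early vessels, was taken at a probe set with the r suffix. It read 214.7 and 231 against 409, 294.8 and 323.3, a log2 fold change of 0.46 (SE 0.11, limma adjusted p = 0.0108). Leaving out depleted sample 1 ended that call (adjusted p = 0.0807). The pannexin gene Panx1 had -0.16 (adjusted p = 0.0837), and passed as lower with arrays scaled to the same median (0.0318) and after quantile normalization (0.0368). Gja3, Gjb5 and Gjb6 had values of 0.06, 0.14 and 0.06.

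Other tight junction genes mostly did not pass, as held for all genes, of which 33.7% were called either way. Of 41 on the arrays 31 were tested, of which 7 were called higher, 0 lower, and 24 missed the threshold, with a median log2 fold change of 0.02, against 19.2% rising and 0.019 over all genes. Amotl1, a scaffold of the angiomotin family that binds polarity and Hippo pathway proteins, rose from 194.4 and 214.2 to 685.5 and 757 on set B (log2 fold change 1.49), and its relative Amotl2 on set A by 0.98. Mpp5, the polarity scaffold also called Pals1, rose by 1.06, the polarity gene Pard6g by 0.5, the scaffold gene Magi1 by 0.25 and Ybx3, whose product binds ZO1 in epithelial cells, by 0.57. The Magi1 call ended on leaving out depleted sample 2 (adjusted p = 0.068) and in the fit blocked by sample number (0.0752). Cldn12 was the claudin on this list that rose, at a probe set with the i suffix. It went from 69.13 and 69.44 to 158.7, 191.6 and 188.8 on set C (log2 fold change 0.92, limma adjusted p = 3.12e-05). Cldn12, and Mpp5 on set B (126.7 and 139.4), lay below the filter on both depleted arrays. Both genes entered the test only through the enriched arrays. Of the other claudins tested, Cldn2, Cldn3, Cldn6, Cldn7, Cldn10, Cldn13, Cldn14 and Cldn15, none passed, with log2 fold changes from -0.17 in Cldn3 to 0.08 in Cldn6 and Cldn10. Cldn3 passed as lower under quantile normalization (adjusted p = 0.0268), scaling to the same median (0.0298) and array weights (0.0262). Sympk, the gene of the RNA processing scaffold symplekin, had -0.36 (limma adjusted p = 0.0758) and passed as lower without depleted sample 2 (0.0372) or enriched sample 3 (2.05e-05). Arhgef2 had -0.17 (limma adjusted p = 0.122) and passed as lower without enriched sample 3 (0.0149).

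Some of these genes had probe sets that disagreed, named here after their values were seen. Mpdz, a scaffold with many PDZ domains, had a log2 fold change of 0.04 at its brightest probe set and 1.52 (adjusted p = 4.78e-05, limma) at another. Cgnl1, which encodes paracingulin, had 0.17 at its brightest and 0.88 (adjusted p = 3.68e-06) at another, and Magi3 had 0.02 and 0.38 (adjusted p = 0.00038). Mpdz, Cgnl1 and Magi3 passed as higher with the mean of a gene's probe sets (limma adjusted p = 0.000171, 0.000894 and 0.016, in that order). The brightest Cgnl1 probe set had 0.27 without enriched sample 3.

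Of 18 tested genes of endothelial and adherens junctions 14 rose, 2 fell and 2 did not pass, with a median log2 fold change of 0.99, against 19.2% rising, 14.4% falling and a median of 0.019 over all genes. The difference from the other lists was not tested. Cdh5, the endothelial cadherin, read 153.1 and 142 against 2537, 3100 and 3031, a log2 fold change of 3.65 (SE 0.1, limma adjusted p = 1.04e-07), beside 3.72 in Cldn5 and 3.97 in Gja1. Both depleted values of Cdh5 lay below the filter (176.1 and 179.9). Like Cldn5 and Gja1, it entered the test only through the enriched arrays and had to differ. Ptprb, the endothelial phosphatase that binds this cadherin, rose by 3.17, the adhesion molecule genes Mcam and Esam by 2.31 and 2.28, and Vcl, the actin linker vinculin, by 2.24. The catenin genes Ctnna1 and Ctnnb1 rose by 1.96 and 1.37, Afdn, which links nectins to actin, by 1.58, Icam2 by 1.03 and Pecam1, shared by endothelium, platelets and leukocytes, by 0.96. Cd99l2 (0.2, limma adjusted p = 0.0504) did not pass, but passed as higher with array weights (0.0136) and the filter at the 60th percentile (0.0381). The 2 that fell, named after their values were seen, were the plakoglobin gene Jup and Nectin1, both by 0.26 on the log2 scale. The Jup call ended on leaving out depleted sample 2 (limma adjusted p = 0.204), enriched sample 2 (0.093) or enriched sample 3 (0.0955), and in the fit blocked by sample number (0.108). That of Nectin1 ended on leaving out depleted sample 1 (0.0724), depleted sample 2 (0.0857) or enriched sample 2 (0.0802), and with the mean of its probe sets (0.101).

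**Figure D4:**
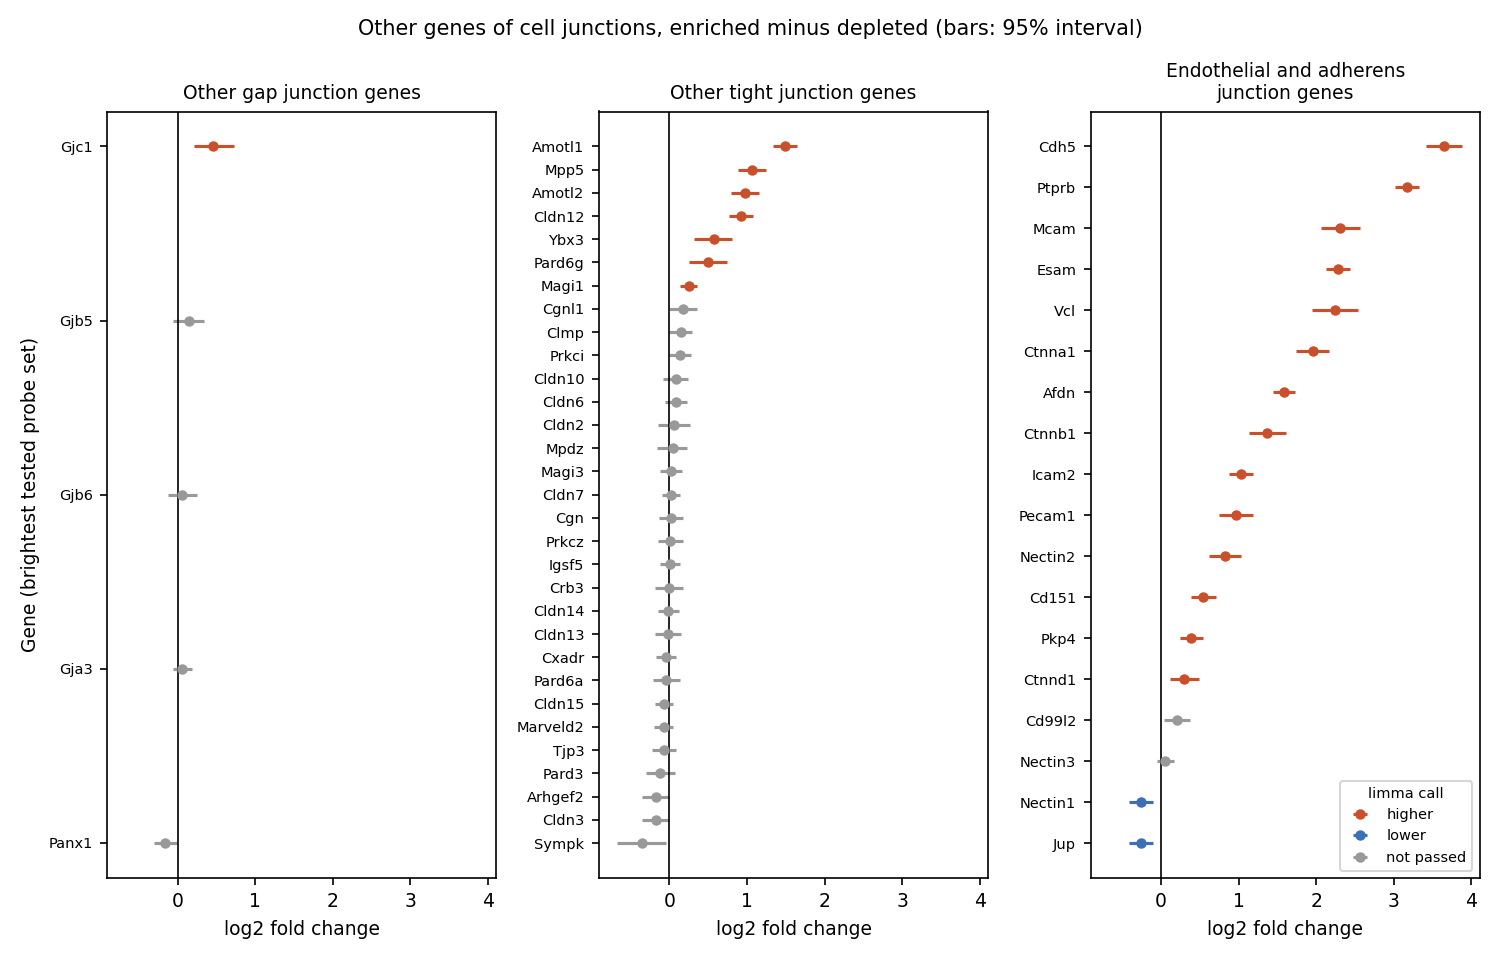
Log2 fold change with its 95% limma interval (horizontal) of the tested genes of 3 lists of other junction genes (vertical), each gene by its brightest tested probe set, coloured by the limma call. Most of the other gap and tight junction genes lie near 0, with Amotl1 highest at 1.49, while the endothelial and adherens genes reach 3.65 in Cdh5.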

How the data were processed

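RNA of mouse splenocytes enriched for or depleted of FDC was measured on 3 array sets. For each set the authors deposited a table of intensity on a linear scale; the sources used here do not give the summary method or scaling. The tables hold 12488, 12477 and 11934 probe sets, and enriched sample 2 on set A lacks 893 values, fitted on the remaining arrays. Trimmed means of a set differed by at most 1.08-fold, so no further scaling was applied. Precision is limited by how many arrays there are. Groups and sample numbers come from the titles. Genes were named through the array annotation, updated by Entrez identifier to the GRCm38.p6 gene table; no build is named for the arrays, and the only positions given are those of the RefSeq promoter windows.

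Pseudocounts were 88.49, 81.23 and 53.13 on A, B and C. Enriched minus depleted was tested two-sided per set with limma 3.58.1 (lmFit, eBayes with trend) in R 4.3.3, leaving out 66 controls per set, with no covariates. The brightest tested probe set stands for a gene, from the set where it ranks highest. With 2 against 3 arrays an exact permutation test cannot go below 0.1. The calls were tested on simulated data with independent noise, which cannot show whether the samples here are independent. The members, gene lists and named genes (all members, passing genes of 3 junction lists up to 10 each, Cdh5, Pecam1, Esam, Actb, Ptprc, the brightest genes of marker lists and the 3 nearest profiles per member) were chosen with earlier results of these data known. Alternatives were 2 pseudocounts, 2 filters, 2 scalings, array weights, no trend, a replicate block, adjustment over all sets, the mean of a gene's probe sets and leaving out each sample.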

Additional observations from a re-analysis of the deposited data

How the results depend on the processing

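The count of 7 rising and 0 falling members was 6 rising with the filter at the 60th percentile, which drops Jam3, and 7 under every other alternative run. No tested member probe set changed its call; Jam3 on set C turned to -0.02 without depleted sample 2 (adjusted p = 0.9), in a range of -0.02 to 0.09 with a sample left out. The connexin median of 1.64 was 1.82 and 1.31 with pseudocounts at the 10th and 40th percentiles, 2.81 with the filter at the 60th percentile, which drops Gja5, and 1.55 under quantile normalization. The tight junction median of 1.31 was 1.52, 0.96 and 2.06 under the first 3 of these. The 2.06 comes from the filter at the 60th percentile, which drops Ocln as well as Jam3. The median was 1.55 with F11r from set A, an alternative added after seeing the data. The count of other gap junction genes, 1, was 0 with the filter at the 60th percentile, 2 with arrays scaled to the same median or after quantile normalization, and from 0 (without depleted sample 1) to 1 with a sample left out.

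Probe sets called on set A, 3240, fell to 2028 and 2038 without depleted sample 1 or 2, and the range with a sample left out was 2028 to 3670. On set C, 1341 became 808 without depleted sample 2 and 882 without enriched sample 3, with a range of 808 to 1315. With the replicate block set C had 865 calls; same-numbered samples of the groups share only a number, as far as these data go (correlations of deviations 0.033 and 0.061 on A, -0.312 and -0.149 on C), and were not taken as pairs. Set B shares 1 number and could not be blocked. In the lists, Ctnnd1 (0.3, rising) did not pass under either other scaling, with the block, and without depleted sample 1 or 2 or enriched sample 3.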
